A study of Mus musculus with 2 samples.

Results

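The genes described here are the cytosolic heat shock chaperones of the mouse and their master regulator in the left cerebral cortex. They were taken by symbol and are 10 of the 55536 genes in the deposited gene tables, with 60 annotated transcripts. The inducible class holds 7 genes, Hspa1a, Hspa1b, Hsph1, Dnajb1, Hspb1, Bag3 and Hsp90aa1. The constitutive class holds 2 genes, Hspa8 and Hsp90ab1. Hsf1, the regulator, belongs to neither class. All 10 genes were found in both libraries, and none was removed by a filter on low values.

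Total RNA was measured in 2 male mice aged 36 days of the B6CASTF1/J strain, an F1 hybrid of B6 and CAST. A single library per mouse was made from 300 ng of RNA, to which ERCC spike-ins had been added. The animals are called replicate 1 and replicate 2 after the labels, which describe them as separate mice although both carry the same donor identifier. The labels give no heat, drug or other treatment, so the study holds a single group with no named treatment. "Inducible" and "constitutive" are therefore class names from general knowledge of these genes, and no induction was measured. Reads were assigned to a reference annotation and not to the parental alleles.

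Heat shock proteins help other proteins fold, keep unfolded proteins from clumping and return them to use or send them to degradation. HSP70 chaperones bind short exposed stretches of a client protein in a cycle driven by ATP. J proteins such as Dnajb1 bring the client and stimulate the ATPase, and Hsph1 and Bag3 release the nucleotide so that the cycle can start again. HSP90 acts later on kinases, receptors and other clients that are nearly folded. Under protein stress the transcription factor Hsf1 forms trimers, binds repeats of the short sequence nGAAn upstream of heat shock genes and raises the transcription of the inducible members. Neurons are known to depend on Hspa8 at the synapse, where it strips clathrin from vesicles.

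Several members have almost identical copies at other loci, which bears on the counts of those members below, so the sequences are shown first. The following 90-nt stretches of coding sequence, with the matching stretch of the closest copy, come from the GENCODE M21 transcripts on mm10. They are written 5′ to 3′ on the strand of the gene, with the differing bases in capitals.
Hspa1a, chr17:34970484-34970573, minus strand: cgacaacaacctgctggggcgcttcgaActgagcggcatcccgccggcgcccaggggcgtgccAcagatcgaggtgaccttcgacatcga
Hspa1b, chr17:34957566-34957655, minus strand: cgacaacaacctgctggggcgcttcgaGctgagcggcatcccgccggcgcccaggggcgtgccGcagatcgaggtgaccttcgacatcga
Hspa8, chr9:40801991-40802080, plus strand: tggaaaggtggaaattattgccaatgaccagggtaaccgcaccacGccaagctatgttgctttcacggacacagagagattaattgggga
Gm15459, chr5:5783398-5783487, minus strand: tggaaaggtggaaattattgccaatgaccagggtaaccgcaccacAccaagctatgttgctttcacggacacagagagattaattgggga
Hsp90aa1, chr12:110695319-110695408, minus strand: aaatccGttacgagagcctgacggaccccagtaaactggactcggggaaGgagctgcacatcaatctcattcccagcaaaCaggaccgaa
Gm12346, chr11:77293668-77293757, plus strand: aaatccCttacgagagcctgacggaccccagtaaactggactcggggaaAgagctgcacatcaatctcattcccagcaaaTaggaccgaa

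Counted from 1 at the 5′ end of the stretch, Hspa1b differs from Hspa1a by A28G and A64G. Gm15459, a processed pseudogene, differs from Hspa8 by G46A. Gm12346, a transcribed processed pseudogene, differs from Hsp90aa1 by G7C, G50A and C81T. Over the whole coding sequence Hspa1a and Hspa1b differed at 8 of 1923 bases, an identity of 99.584%, with a longest identical run of 638 nt. Hspa8 and Gm15459 differed at 5 of 1938 bases, and Hsp90aa1 and Gm12346 at 11 of 2199 bases. A read that falls between the differing bases carries nothing that tells the copies apart.

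The regions upstream of the inducible genes are shown for members whose 250 bases before the annotated start hold a pair of inverted nGAAn units. Such a pair is only a part of the repeat bound by Hsf1 trimers. The regions come from the RefSeq promoter table on GRCm38.p6, are written 5′ to 3′ on the strand of the gene, and carry the pair in capitals.
Hspa1a, chr17:34972157-34972406, minus strand: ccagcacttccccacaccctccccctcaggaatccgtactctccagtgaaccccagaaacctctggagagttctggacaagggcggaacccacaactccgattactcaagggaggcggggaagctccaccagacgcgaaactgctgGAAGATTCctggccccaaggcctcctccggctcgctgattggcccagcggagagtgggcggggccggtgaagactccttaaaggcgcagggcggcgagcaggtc
Hspa1b, chr17:34959239-34959488, minus strand: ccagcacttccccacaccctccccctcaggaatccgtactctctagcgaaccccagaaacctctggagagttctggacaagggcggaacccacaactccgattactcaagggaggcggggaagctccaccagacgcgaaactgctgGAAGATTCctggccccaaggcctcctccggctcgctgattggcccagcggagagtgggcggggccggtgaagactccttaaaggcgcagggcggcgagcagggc
Hspb1, chr5:135887669-135887918, plus strand: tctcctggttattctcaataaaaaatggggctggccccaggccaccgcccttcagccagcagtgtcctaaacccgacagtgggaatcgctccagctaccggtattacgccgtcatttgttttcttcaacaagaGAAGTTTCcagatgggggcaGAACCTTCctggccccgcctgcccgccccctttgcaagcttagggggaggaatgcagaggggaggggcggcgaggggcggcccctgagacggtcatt
Hsph1, chr5:149636337-149636586, minus strand: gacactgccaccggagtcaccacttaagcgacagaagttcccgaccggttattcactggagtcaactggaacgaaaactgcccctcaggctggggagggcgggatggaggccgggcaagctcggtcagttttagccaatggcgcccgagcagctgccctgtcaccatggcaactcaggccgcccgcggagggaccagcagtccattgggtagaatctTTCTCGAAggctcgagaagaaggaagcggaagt

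The letters searched were GAANNTTC and TTCNNGAA, each its own reverse complement, so a match on either strand is a match on both. The windows of 6 members were in the table, Hspa1a, Hspa1b, Hspb1, Hsph1, Bag3 and Dnajb1, and those of Hspa8, Hsp90aa1, Hsp90ab1 and Hsf1 were not. Hspa1a and Hspa1b each held GAANNTTC once, its first base at -104 from the start. Hspb1 held it at -117 and at -97. Hsph1 held TTCNNGAA at -33 from the start used here, and Bag3 and Dnajb1 held neither. Of 32851 windows of this length, 12.8% held either motif. No member window held a run of 3 alternating units, which 0.466% of all windows did. The Hspa1a and Hspa1b windows differed at 3 of 250 bases, which from Hspa1a to Hspa1b read C44T, T47C and T249G counted from the 5′ end. A match describes these letters only, since binding was not measured.

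The libraries held 29915463 expected counts in replicate 1 and 27988085 in replicate 2. An expected count is an estimated number of reads, in which reads shared between genes are split. The 10 genes took 0.345% and 0.312% of them, and 0.258% and 0.230% of all TPM (a level per transcript length, scaled to a fixed total per library). Spike-in RNAs took 0.407% and 0.322%. Across 17529 genes the common biological coefficient of variation was 8.96%. All 5 markers each of excitatory neurons, inhibitory neurons, astrocytes, oligodendrocytes, microglia and endothelium reached a TPM of 1 in both mice. So did 4 of 5 mural markers and 2 of 5 of choroid plexus. Of the 5 cerebellar markers only Calb2 did, and the others averaged at most 0.13 TPM. In such bulk tissue fewer cells of a type and less RNA per cell cannot be told apart. With 2 mice in 1 group an exact two-sided test cannot give a p below 0.5, so values are given without tests. Errors below are the SD of the 2 mice, unless named otherwise.

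Inducible and constitutive members lay at separate levels in both mice. The 7 inducible genes summed to 717.8 TPM in replicate 1 and 655.9 TPM in replicate 2, against 1832 and 1607 TPM for the 2 constitutive genes. The inducible share of the summed TPM of these 9 chaperones was 28.2% and 29.0%, or 28.6 ± 0.588% (n = 2). Hsp90aa1 supplied most of the inducible sum, and without it the share was 11.2% and 11.6%. The median inducible gene had 9.33 and 10.7 TPM, against 916.1 and 803.7 TPM for the constitutive median. The medians differed by -6.25 ± 0.256 on the log2(TPM + 1) scale. In alignment-based TPM the highest inducible gene, Hsp90aa1, was below the lower constitutive gene, Hsp90ab1, in each mouse, so the classes did not overlap. In expected counts, which also grow with transcript length, the inducible share was 33.4% and 34.4%.

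**Figure D1:**
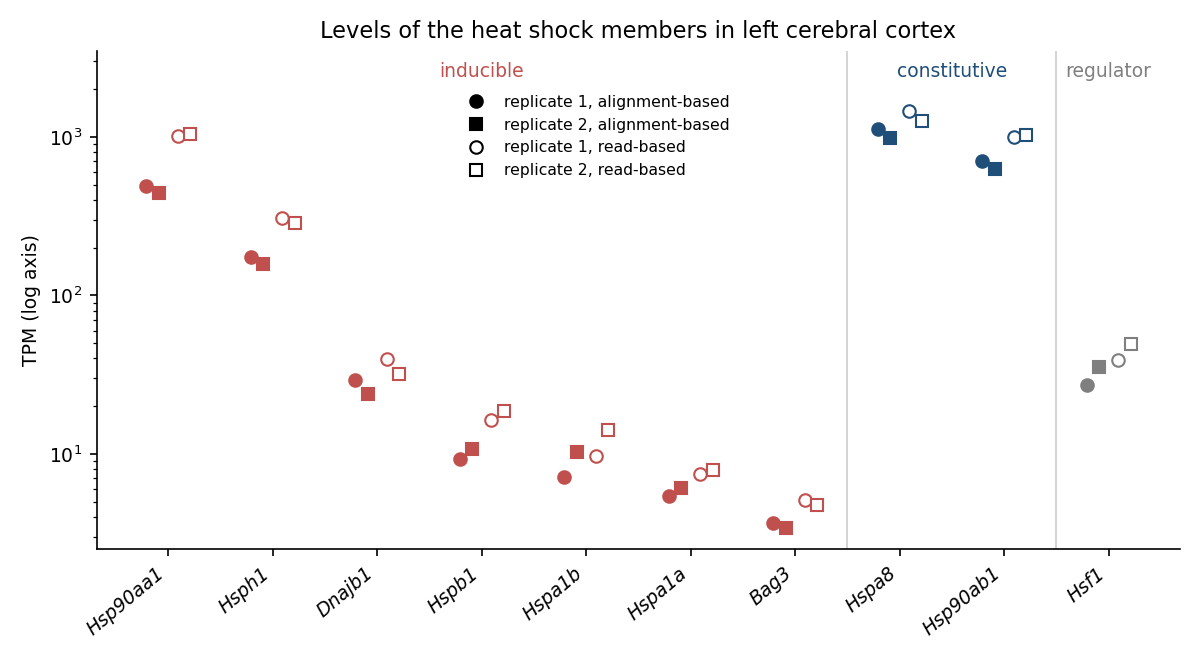
TPM of each member on a log axis, inducible genes at the left, constitutive genes next and Hsf1 at the right. Filled points are the alignment-based and open points the read-based table, circles are replicate 1 and squares replicate 2. Alignment-based Hsp90aa1 lies under Hsp90ab1 and read-based Hsp90aa1 beside it.

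The plot of levels shows a wide spread inside the inducible class, where Hsp90aa1 averaged 466.3 ± 30.5 TPM and Bag3 3.53 ± 0.205 TPM. Ordered by mean TPM the members ran Hspa8, Hsp90ab1, Hsp90aa1, Hsph1, Hsf1, Dnajb1, Hspb1, Hspa1b, Hspa1a and Bag3. Neighbours in this order had separate values in the 2 mice except Hsf1 with Dnajb1 and Hspb1 with Hspa1b, whose ranges overlapped. Among 22015 nuclear protein-coding genes, Hspa8 ranked 3, Hsp90ab1 31 and Hsp90aa1 61 by mean TPM. Bag3 ranked 11099 and Hspa1a 9990.

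Hspa1a and Hspa1b encode nearly the same stress-inducible HSP70 protein from neighbouring genes on chromosome 17, both on the minus strand. Hspa1a (ENSMUSG00000091971.3, chr17:34969190-34972156) had 5.41 TPM in replicate 1 and 6.05 TPM in replicate 2, from 305.3 and 319.2 expected counts. Hspa1b (ENSMUSG00000090877.3, chr17:34956436-34959238) had 7.13 and 10.3 TPM, from 379.6 and 513.7 expected counts. Both were low in both mice, and Hspa1b was the higher copy in each.

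The split between these copies rests on few bases. Of the 100-nt windows of Hspa1a-201, 48.6% occurred letter for letter in another gene, and of Hspa1b-201, 49.9%. The deposited posterior SD of the count, which measures the uncertainty of dividing reads, was 15.3 counts for each copy in replicate 1 and 17.1 counts for each in replicate 2. The summed count does not depend on that division between them and was 684.8 in replicate 1 and 832.9 in replicate 2. The summed TPM was 12.5 and 16.4. It does depend on the division, because Hspa1a-201 has 2967 nt and Hspa1b-201 has 2803 nt. Gm20481, annotated on the opposite strand over Hspa1a, had 3 and 1 counts.

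Hspa8 encodes the constitutive HSP70 of the cytosol, the partner of the same co-chaperones. Hspa8 (ENSMUSG00000015656.17, chr9:40800984-40810087, plus strand) had 1130 TPM in replicate 1 and 983.6 TPM in replicate 2, from 37651 and 29845 expected counts. The summed Hspa1a and Hspa1b stood to Hspa8 at -6.49 in replicate 1 and -5.91 in replicate 2 on the log2 TPM scale, a mean of -6.20 ± 0.414. In expected counts the same ratio was -5.78 and -5.16.

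Hspa8 also has the most copied sequence of the members. Of the 100-nt windows of its leading transcript, Hspa8-202, 73.2% occurred in 7 processed pseudogenes. Gm15459 (chr5:5781615-5783555, minus strand) alone was assigned 10872 and 8101 expected counts, or 299.8 and 239.2 TPM. The read-based tables gave it 9977 and 7456 estimated counts. Together the 7 pseudogenes held 23.6% and 22.6% of the counts of Hspa8 and its copies. With them added, Hspa8 would stand at 1450 and 1240 TPM. The deposited posterior SD was 147.2 and 130.1 counts for Hspa8, and 147.3 and 129.2 counts for Gm15459. Whether the reads on Gm15459 came from that locus was not tested.

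**Figure D2:**
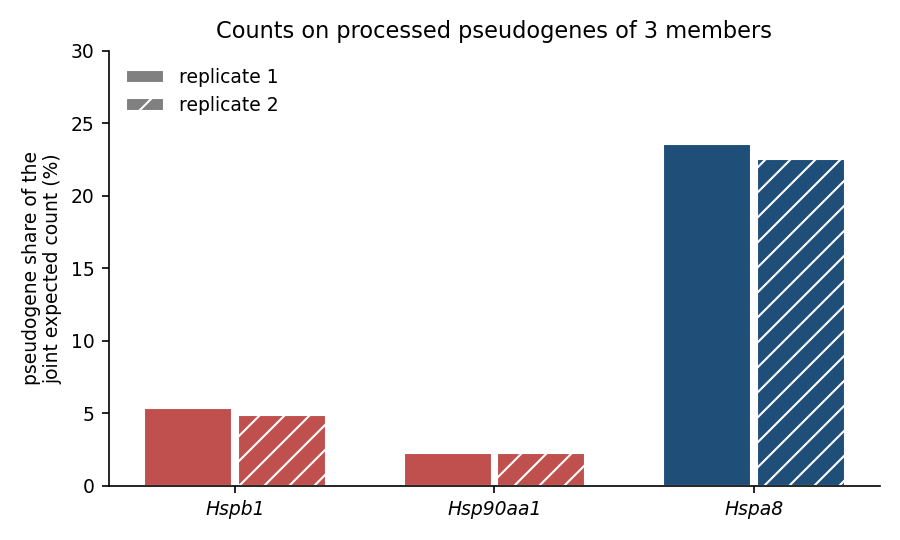
Share of expected counts on processed pseudogenes, as a percent of the joint count of the member and its pseudogenes. Plain bars are replicate 1 and hatched bars replicate 2. Hspa8 stands at 23.6% and 22.6%, and Hspb1 and Hsp90aa1 are under 6%.

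The co-chaperones of HSP70 spanned a wide range of levels. Hsph1, an HSP110 that exchanges the nucleotide of HSP70 (ENSMUSG00000029657.15, chr5:149614287-149636376, minus strand), had 175.4 TPM in replicate 1 and 156.7 TPM in replicate 2. Its counts were 8938 and 7380, and it was the second highest inducible gene in each mouse. Dnajb1, the J protein of the stress response (ENSMUSG00000005483.10, chr8:83608193-83612653, plus strand), had 29.0 and 24.0 TPM from 1654 and 1273 counts. Bag3, which links HSP70 to small heat shock proteins and to autophagy (ENSMUSG00000030847.8, chr7:128523616-128546981, plus strand), had 3.67 and 3.38 TPM from 178 and 153 counts. Replicate 1 had the higher TPM for all of these genes, and the 2 mice did not differ in their order. None of the 3 leading transcripts shared a 100-nt window with another gene, and the posterior SD was 0 for each.

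Hspb1 encodes a small heat shock protein that holds unfolded clients without ATP. It (ENSMUSG00000004951.10, chr5:135887919-135889563, plus strand) had 9.33 TPM in replicate 1 and 10.7 TPM in replicate 2, from 147.6 and 157.9 counts. Of the windows of Hspb1-201, 56.3% occurred in the processed pseudogene Hsp25-ps1, which was assigned 8.38 and 8.14 counts.

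The HSP90 pair lay closest together across the classes. Hsp90aa1, the inducible alpha form (ENSMUSG00000021270.13, chr12:110690605-110702728, minus strand), had 487.9 TPM in replicate 1 and 444.8 TPM in replicate 2, from 22607 and 19873 expected counts. Hsp90ab1, the constitutive beta form (ENSMUSG00000023944.14, chr17:45567775-45573271, minus strand), had 702.0 and 623.7 TPM, from 30464 and 26840 counts. The log2 TPM ratio of Hsp90aa1 over Hsp90ab1 was -0.53 and -0.49, a mean of -0.51 ± 0.0263. Hsp90aa1 was the lower of the pair in both mice in the alignment-based table.

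The read-based table did not keep that order. It gave Hsp90aa1 1010 and 1039 TPM, against 1001 and 1031 TPM for Hsp90ab1, a log2 ratio of 0.012. The 481-nt transcript Hsp90aa1-207 held 4.29 and 4.61 of the alignment-based TPM of Hsp90aa1, and 430.7 and 494.5 of the read-based TPM. In counts it held 32.2 and 32.4 alignment-based and 1030 and 1110 read-based. Over transcripts of at least 800 nt, a minimum chosen after seeing the data, the read-based ratio was -0.58 and -0.60. With the shorter transcripts left out, Hsp90aa1 was thus again the lower of the pair. Why the 2 kinds of table differ on the shorter transcripts was not tested. Pseudogenes added 520.6 and 456.8 counts to Hsp90aa1, 2.25% of the joint count in each mouse.

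Hsf1, the transcription factor of the response (ENSMUSG00000022556.11, chr15:76477422-76501913, plus strand), had 27.0 TPM in replicate 1 and 35.1 TPM in replicate 2, from 925 and 1058 counts. It stood above Dnajb1 in replicate 2 and below it in replicate 1. No window of its leading transcript occurred in another gene.

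The transcripts behind these levels differed in kind between members. Hspa1a, Hspa1b and Bag3 have a single annotated transcript. Hspb1-201 held 100% of Hspb1 and Dnajb1-201 97.1% and 95.5% of Dnajb1 in alignment-based TPM. Of the 60 transcripts, 45 had at least 1 expected count in both mice. All 18 annotated as retaining an intron were among them in this table, and 15 of the 18 had at least 1 read-based count in both mice.

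**Figure D3:**
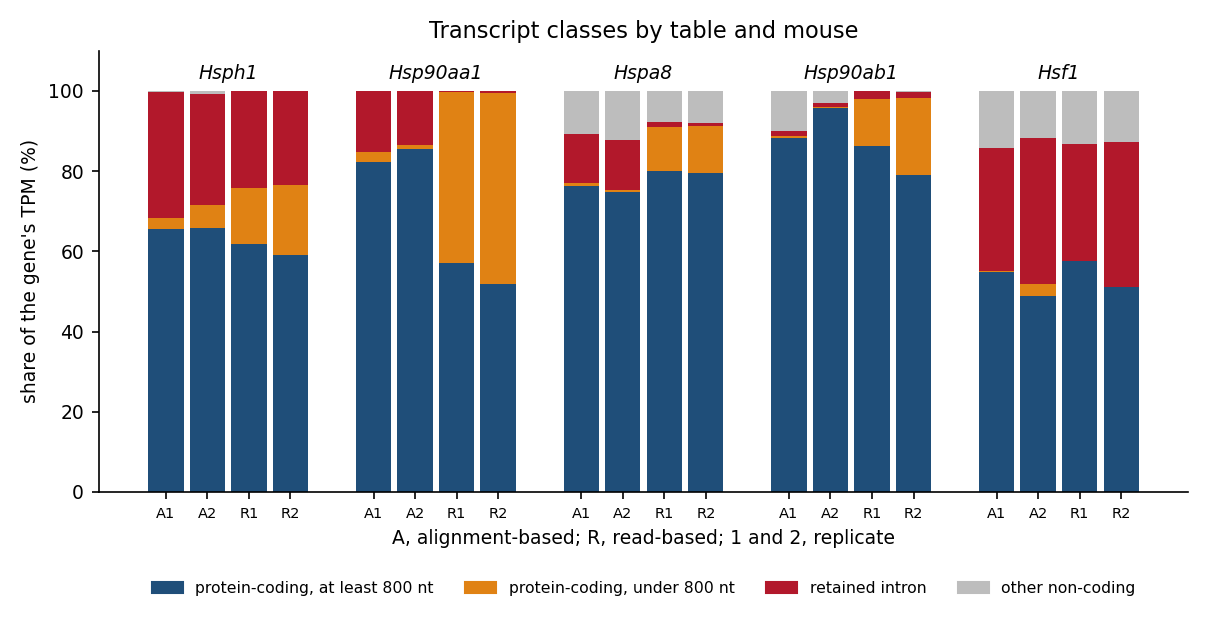
Share of the TPM of 5 members by transcript class, in percent. A marks the alignment-based and R the read-based table, each for replicate 1 and replicate 2. Short protein-coding transcripts hold 42.6% and 47.6% of read-based Hsp90aa1, and retained introns 31.3% and 27.7% of alignment-based Hsph1.

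Retained-intron transcripts, which keep intron sequence and are not annotated to make protein, were prominent in Hsph1 and Hsf1 in both kinds of table. They held 31.3% of Hsph1 TPM in replicate 1 and 27.7% in replicate 2, mostly on the 751-nt Hsph1-208 (chr5:149617455-149619173). The read-based tables gave this class 24.3% and 23.4% of Hsph1. Because the transcript is short, the same class held 10.5% and 8.22% of the Hsph1 expected counts. For Hsf1 the class held 30.7% and 36.5% of alignment-based TPM and 29.0% and 36.3% of read-based TPM. Protein-coding transcripts gave 55.0% and 51.7% of Hsf1 TPM, so its protein-coding level was 14.9 and 18.2 TPM. Hsf1-205 led in both kinds of table, at 31.7% and 25.9% of alignment-based TPM. Retained-intron transcripts also held 15.33% and 13.45% of alignment-based Hsp90aa1 TPM, and 12.2% and 12.5% of that of Hspa8. In read-based TPM they held only 0.254% and 0.493% of Hsp90aa1, and 1.46% and 0.627% of Hspa8. For Hsp90ab1 they held at most 2.03% in either kind of table.

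The leading transcript was the same in both kinds of table for 8 of the 10 genes, and differed for Hspa8 and Hsph1. For Hspa8 the alignment-based tables put 45.2% and 47.8% on Hspa8-202 and 31.1% and 27.0% on Hspa8-201. The read-based tables put 79.5% and 79.4% on Hspa8-201 and 0.515% and 0.161% on Hspa8-202. These transcripts start at different places, and 94.9% of the 100-nt windows of Hspa8-202 occur in Hspa8-201, which leaves 97 windows of its own. For Hsph1, Hsph1-211 led with 42.8% and 44.6% alignment-based and had 13.6% and 14.4% read-based. Hsph1-209 had 0 alignment-based counts in both mice and 2778 and 2390 read-based counts, and 96.8% of its windows occur in Hsph1-211. The gene counts of these members were close, with 0.980 and 0.971 alignment-based counts for each read-based count of Hspa8, and 0.931 and 0.930 for Hsph1.

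A minor transcript of Hsp90ab1 was uneven between the mice. Hsp90ab1-206, annotated for nonsense-mediated decay, held 837.3 expected counts in replicate 1 and 207.0 in replicate 2, or 10.03% and 2.99% of Hsp90ab1 TPM. It was picked after its values were seen. The read-based tables gave it 0 and 11.9 counts, so the difference between the mice was seen in the alignment-based table alone.

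The mice were then compared gene by gene as the log2 ratio of replicate 1 over replicate 2, after TMM scaling of the counts. There is no replicate of this difference, and the intervals cover counting error only. Of the 10 genes, 6 were higher in replicate 1 and 4 in replicate 2. Of 16491 genes averaging 20 counts or more, 49.9% were higher in replicate 1 and 50.1% in replicate 2. None of the members passed a ratio of 0.5 in size, which 10.1% of all genes did, and 3.36% of those averaging 100 counts or more. None passed 1 in size, which 1.74% of all genes did, that is 0.503% toward replicate 1 and 1.24% toward replicate 2.

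**Figure D4:**
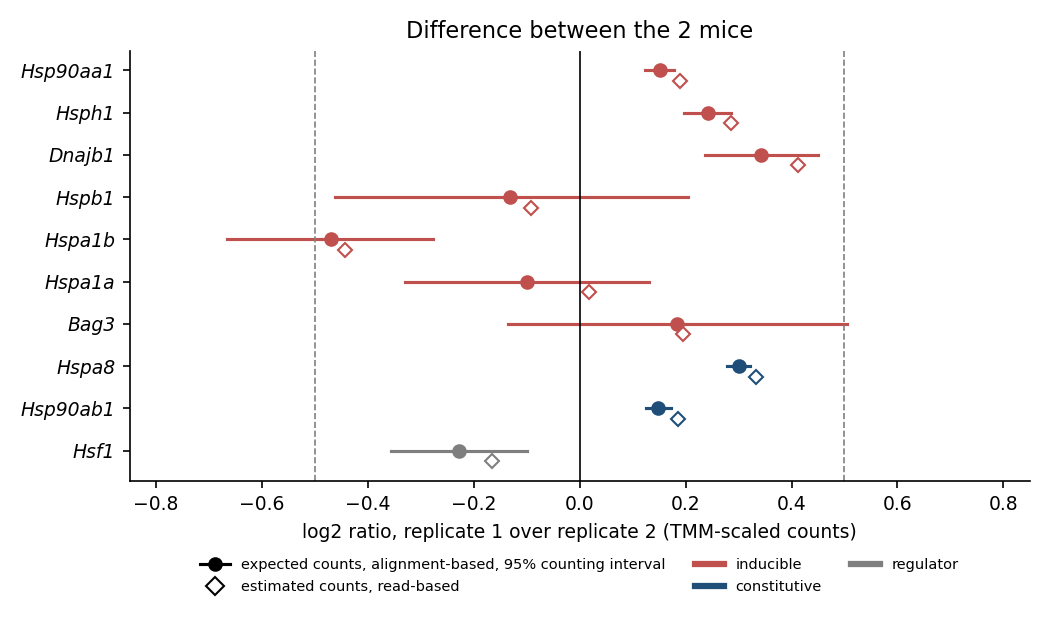
Log2 ratio of replicate 1 over replicate 2 for each member, with a 95% counting interval (line) and the read-based value (diamond). Round points are TMM-scaled, and diamonds are instead shifted to the same median over genes. Dashed lines mark 0.5 in size. All points lie between the dashed lines, with Hspa1b at -0.47 and Dnajb1 at 0.34 the farthest from 0.

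The plot of ratios shows both constitutive genes on the side of replicate 1. Among inducible genes, Dnajb1 stood at 0.34 (95% counting interval 0.24 to 0.45), Hsph1 at 0.24 (0.20 to 0.29) and Hsp90aa1 at 0.15 (0.12 to 0.18). The constitutive Hspa8 stood at 0.30 (0.28 to 0.32) and Hsp90ab1 at 0.15 (0.12 to 0.17). Hspa1b stood the other way at -0.47 (-0.67 to -0.28), as did the summed Hspa1a and Hspa1b at -0.32 (-0.46 to -0.17) and Hsf1 at -0.23 (-0.36 to -0.10). The intervals of Hspa1a at -0.10, Hspb1 at -0.13 and Bag3 at 0.18 included 0.

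The median ratio of the members was 0.15, and that of all genes tested -0.00044. Genes averaging 1000 counts or more, of which there were 5278, had a median of 0.052, and 67.7% of them were higher in replicate 1. The deposited TPM intervals of the mice, whose level is not stated in the headers, did not overlap for 6 members (Hspa1b, Hsph1, Dnajb1, Hspa8, Hsp90ab1 and Hsf1), against 12.4% of all genes tested and 14% of those averaging 100 counts or more. They are set around a posterior mean, and the deposited TPM of Hspa8 in replicate 1 and of Hsp90ab1 in both mice lies above its interval. These intervals narrow with depth and leave out the spread between animals. The read-based ratios, shifted to the alignment-based median over genes, had the same direction for 9 of the 10 genes, Hspa1a excepted at 0.018.

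Cell type markers moved between the mice as well. The 5 oligodendrocyte markers summed to 1220 TPM in replicate 1 and 1000 TPM in replicate 2, with a median log2 ratio of 0.36, and all 5 were higher in replicate 1. The 5 excitatory markers had a median of 0.15 and all were higher in replicate 1. Astrocyte (0.083, 4 of 5 higher in replicate 1), microglia (0.069, 4 of 5) and inhibitory markers (0.0095, 3 of 5) had smaller medians. On the other side lay mural markers at -0.18 with 1 of 5 higher in replicate 1 and endothelial markers at -0.0041 with 2 of 5. The 3 choroid plexus markers tested were split, with Ttr at 0.74, Kl at -0.079 and Clic6 at -0.47. Of the cerebellar list only Calb2 was tested, at -0.57, and the other genes of that list averaged at most 0.13 TPM. Their part in the ratios of the members was not tested. Scaling by spike-in totals moved the median of all genes by -0.40 and turned the sign of Hsph1, Dnajb1, Bag3, Hsp90aa1, Hspa8 and Hsp90ab1. With that scaling every member was higher in replicate 2. Such a scaling shifts every gene equally, so the distance of the members from the median of all genes, 0.15, is the same under each scaling by construction.

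The members stood at the top of the wider chaperone network and also near its bottom. Of 73 other chaperone, co-chaperone and heat shock factor genes, 62 reached a TPM of 1 in both mice. The other HSP70 and HSP110 genes had a median of 57.4 TPM in replicate 1 and 64.5 TPM in replicate 2, with Hspa5, the HSP70 of the endoplasmic reticulum, highest at 190.4 ± 26.9 TPM and Hspa1l lowest at 0.060 ± 0.0141 TPM. Hspa8 averaged 1057 ± 104 TPM, above all 73. The other HSP90 genes were Hsp90b1 of the endoplasmic reticulum at 159.6 ± 5.66 TPM and Trap1 of mitochondria at 31.9 ± 0.0636 TPM, both under Hsp90aa1 and Hsp90ab1.

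**Figure D5:**
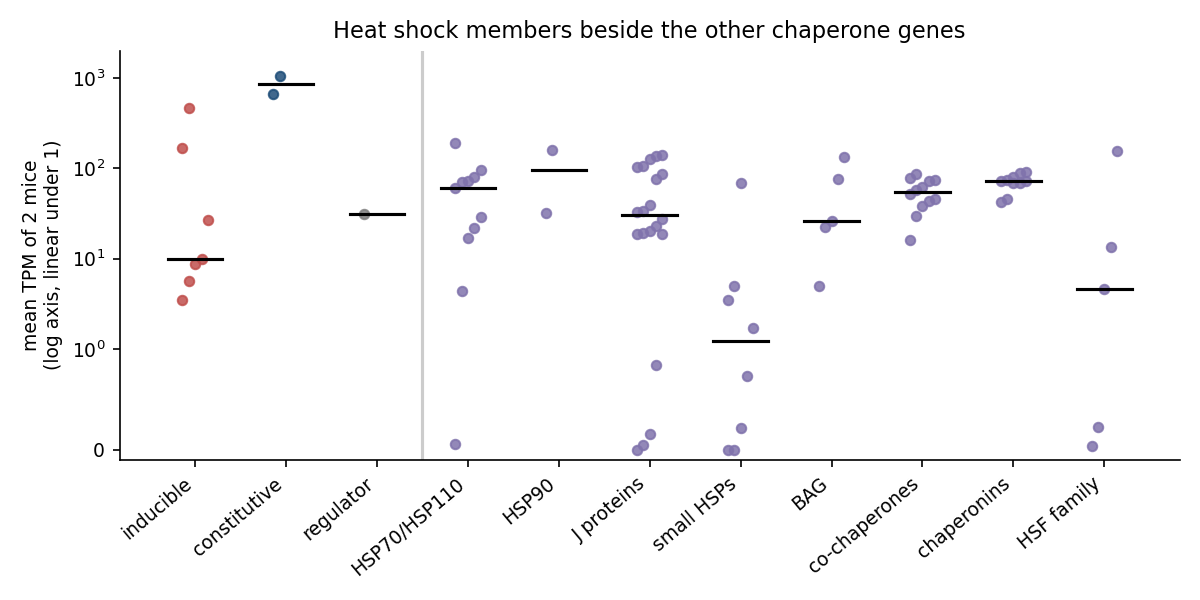
Mean TPM of 2 mice for each gene (points) and the median of each list (bars), on an axis that is logarithmic above 1 and linear under it. The inducible, constitutive and regulator genes are at the left and 8 lists of other genes at the right. Both constitutive genes lie above every gene of the other lists.

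Co-chaperones showed the same mixture. Of 20 other J proteins, 16 had at least 1 TPM in each mouse. By mean alignment-based TPM Dnajc6, the J protein that recruits Hspa8 to clathrin coats, was highest at 138.9 ± 6.85 TPM, and Dnajb8 was listed at 0. Dnaja1 was close at 137.9 TPM, and stood above it in replicate 2 and in the read-based mean. Of 8 other small heat shock proteins, 4 reached that level. Cryab, a small heat shock protein of glia and muscle, was highest at 68.7 ± 3.10 TPM, above Hspb1, and Hspb9 and Cryaa were listed at 0. Among other BAG genes, which share the domain through which Bag3 binds HSP70, Bag6 was highest at 133.4 ± 14.0 TPM and Bag2 lowest at 4.95 ± 0.311 TPM, above Bag3. Among co-chaperones of HSP90 or HSP70, Stip1 was highest in alignment-based TPM at 87.7 ± 1.31, though below St13 and Ahsa1 in the read-based mean. Unc45a was lowest in both kinds of table, at 16.2 ± 0.163 alignment-based TPM.

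Between the mice, 53 of the 62 other genes tested were higher in replicate 1, with a median log2 ratio of 0.10, against 49.9% of all genes tested and 67.7% of those averaging 1000 counts or more. Past 0.5 in size were 1 of them higher in replicate 1, Dnajb5 at 0.51, and 2 higher in replicate 2, Hspa12b at -0.56 and Hspb3 at -0.59, named after their values were seen. Over all genes tested 2.43% passed 0.5 toward replicate 1 and 7.69% toward replicate 2.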

How the data were processed

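Total RNA-seq of 2 libraries, 1 per mouse and both in 1 group, was analysed. The alignment-based gene and transcript tables, quantified on mm10 with GENCODE M21 per the deposited listing, hold deposited expected counts (estimated reads, not normalized), deposited TPM over all rows, each transcript's percent of the TPM of its gene, posterior SDs and TPM intervals, per the file headers. The read-based transcript tables hold deposited estimated counts and TPM, which were summed by gene. Which aligner and quantifier made them is not given in the sources used here. Alignment-based effective lengths were 99 nt under the transcript length, so copied sequence was sought in exact windows of 100 nt.

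TPM is given as mean and SD of 2 mice. For edgeR 4.0.16 (R 4.3.3) expected counts were rounded to whole numbers, and its TMM scaling and a prior count of 0.5 gave the ratios. Their intervals are exact binomial at 95% and cover counting error only. These intervals leave out the uncertainty of splitting reads between copies. No test between groups was run. Coding sequences were aligned with Biopython 1.88. Other steps used Python 3.11.15 with pandas 2.3.3, numpy 2.4.6, matplotlib 3.10.9 and scipy 1.17.1. Spike-in rows held 0.407% and 0.322% of counts and stayed out of the TMM scaling.

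All 10 members are named. Of each other chaperone list the highest and lowest gene by mean TPM is named, with any gene whose ratio passes 1 in size at a mean count of at least 20 (none did). Members, classes, lists and this rule were chosen with earlier results of these data known. Alternatives were DESeq2 1.42.0 size factors, library and spike-in totals, other pseudocounts, prior counts and filters, read-based values, expected counts, other classes for Hsp90aa1, and leaving out each mouse. Restricting transcripts and adding pseudogenes were chosen after seeing the data.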

Additional observations from a re-analysis of the deposited data

How the results depend on the processing

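The difference between the inducible and constitutive medians kept its sign under all alternatives, at -6.25 as reported, -5.99 with transcripts of at least 800 nt, -5.70 with those in read-based TPM, and between -6.43 and -6.07 in either mouse alone. The inducible share, 28.6% as reported and 28.2% to 29.0% in either mouse, was 37.1% in read-based TPM, 29.7% in read-based TPM of transcripts of at least 800 nt, 33.9% in expected counts, 25.9% with pseudogenes added, 11.4% without Hsp90aa1 and 9.17% with Hsp90aa1 counted as constitutive. Hspa1a and Hspa1b over Hspa8 stood at -6.20, between -6.49 and -5.91 in either mouse. The ratio was -6.13 in read-based TPM, -5.47 in expected counts and -6.55 with pseudogenes added. Over protein-coding transcripts it was -5.81, as over transcripts of at least 800 nt.

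Hsp90aa1 over Hsp90ab1 stood at -0.51, between -0.53 and -0.49 in either mouse. It reversed to 0.012 in read-based TPM, and was -0.43 in expected counts, -0.61 over protein-coding transcripts, -0.63 over transcripts of at least 800 nt, -0.59 over those in read-based TPM and -0.47 with pseudogenes added. The minimum of 800 nt replaced a first one of 1000 nt, also chosen after seeing the data, at which Hspb1 has no transcript and the difference of medians has no value. At 1000 nt the share was 27.9% and the HSP90 ratio -0.64.

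Under spike-in totals the median ratio of the members was -0.25 in place of 0.15. Hsph1 (-0.16), Dnajb1 (-0.056), Bag3 (-0.22), Hsp90aa1 (-0.25), Hspa8 (-0.098) and Hsp90ab1 (-0.25) changed sign, so every member was higher in replicate 2. The number of members past 0.5 was 0 as reported, 1 under library totals and 3 under spike-in totals, against 10.1% of all genes as reported, 11.5% under library totals and 33.1% under spike-in totals. These totals shifted every gene by -0.061 and -0.40. The share of the alignment-based leading transcript moved by more than the spread of the mice in the read-based table for 5 of 10 members. The causes were not tested. No paired analysis was possible because both libraries belong to 1 group. The counting intervals of Bag3, Hspb1 and Hspa1a, which have the fewest counts, include 0, and no difference was detectable at this depth.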

Other observations

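Chaperonins, the closed folding chambers of the cytosol and mitochondria, were even in level beside the heat shock members. Each of the 10 had at least 1 TPM in both animals, and their median was 74.0 TPM in replicate 1 and 69.9 TPM in replicate 2. By mean alignment-based TPM Cct7, a subunit of the cytosolic chamber, was highest at 90.7 ± 1.28, and Hspe1, the lid of the mitochondrial chamber, was lowest at 42.1 ± 2.66. The order was not stable, since Cct4 was below Hspe1 in replicate 1 and in the read-based mean, where Tcp1 at 156.6 TPM stood above Cct7 at 133.9 TPM. All 10 were higher in replicate 1, with a median log2 ratio of 0.13. Of these genes 9 averaged 1000 counts or more, a class in which 67.7% of all genes were higher in replicate 1.

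Among genes related to Hsf1, Hsbp1, which binds heat shock factor trimers, was highest at 156.2 ± 5.62 TPM, above Hsf1 at 31.1 ± 5.69 TPM. Hsf3 was lowest at 0.040 ± 0.0141 TPM, from 1 and 2 expected counts. Of these 5 genes 3 reached a TPM of 1 in both mice.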
